A study of Mus musculus with 23 samples.

Results

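The Ikaros family of zinc finger transcription factors has 5 members in the mouse, Ikzf1 (Ikaros), Ikzf2 (Helios), Ikzf3 (Aiolos), Ikzf4 (Eos) and Ikzf5 (Pegasus). They were followed here in CD4+ T cells profiled on 23 Affymetrix M430v2 arrays. Members were taken as every probe set that the array annotation assigns to 1 of these genes alone, which gave 13 of the 45037 probe sets that are not controls, and 5 of the 18193 genes named on the array. There were 3 probe sets each for Ikzf2, Ikzf3 and Ikzf4 and 2 each for Ikzf1 and Ikzf5. The results lead with the brightest probe set of each gene, the one with the highest mean over all arrays. A level below is the log2 of the deposited RMA intensity, and a difference is a difference of such levels.

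The study set regulatory T (Treg) cells of several origins beside partner T cells. LP Treg and LP Tconv cells (2 arrays each) were CD4+Foxp3-GFP+ and CD4+Foxp3-GFP- cells of the small intestinal lamina propria of C57BL/6-Foxp3/GFP mice. Homeostatic Foxp3+ and Foxp3- cells (3 arrays each) were sorted by the same reporter from spleen and lymph nodes of NOD RAG-/- hosts. These hosts, which lack T and B cells of their own, had received BDC2.5/NOD/Foxp3-GFP- CD4+ cells, T cells with a transgenic receptor against an islet antigen, 14 days earlier. DEC CD25+ and CD25- cells (3 and 4 arrays) came from Balb/c hosts given CD4+CD25- cells of HA6.5/Thy1.2/RAG-/-/Balb/c donors, whose transgenic receptor sees a hemagglutinin peptide. Those hosts were given 1 injection of DEC-HAPeptide (50 ng per mouse), which brings the peptide to dendritic cells, and the cells were sorted 3 weeks after transfer by surface CD25 and not by Foxp3. LN Treg cells were Foxp3-GFP+ cells of peripheral lymph nodes of C57BL/6-Foxp3/GFP mice, split into CD103+Klrg1+, CD103+Klrg1- and CD103-Klrg1- cells (2 arrays each). All mice were males of 6 to 10 weeks, and every sort also required CD3 and excluded B220, CD8a and CD11b/c. Each array pooled mice, 4 to 6 for lamina propria and lymph node groups, 2 to 3 for homeostatic groups and 5 to 10 for DEC groups. The sources used here do not say whether arrays of a group came from separate pools, so p-values measure the spread between these arrays, which may be technical.

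Ikaros family proteins bind DNA through N-terminal zinc fingers and pair with each other through C-terminal ones. Ikaros, Helios, Aiolos and Eos recruit the NuRD, Sin3 and CtBP corepressor complexes, and Ikaros is needed for lymphocyte development. Helios is a widely used marker of Treg cells, particularly those made in the thymus, and Eos is known as a Foxp3 partner in gene silencing. Aiolos acts in B cells, in Th17 cells and in Il2 silencing, and Pegasus is the most divergent member. Ikaros and Aiolos are the proteins that cereblon ligands such as lenalidomide send for degradation.

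The arrays had median intensities of 63.7 to 81.1, with DEC CD25- replicates 3 and 4 the dimmest at 68.5 and 63.7 and every other array at 75.5 or above. DEC CD25- replicate 3 also had a Gapdh 3' over 5' probe difference of 6.59 on the log2 scale, against 1.63 to 3.92 on the other arrays. Foxp3 followed the sorts: it was 11.09 to 11.34 in LP Treg and 4.57 to 4.73 in LP Tconv, and 10.35 to 10.49 in homeostatic Foxp3+ and 4.71 to 4.81 in Foxp3- cells. In the DEC groups it was 10.38 to 10.55 in CD25+ cells and 6.92 to 8.48 in CD25- cells, so the CD25- arrays carried Foxp3 signal above that of the other partner groups. The 5 markers of CD4 T cells on the array were above the filter level in all 9 groups.

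**Figure D1:**
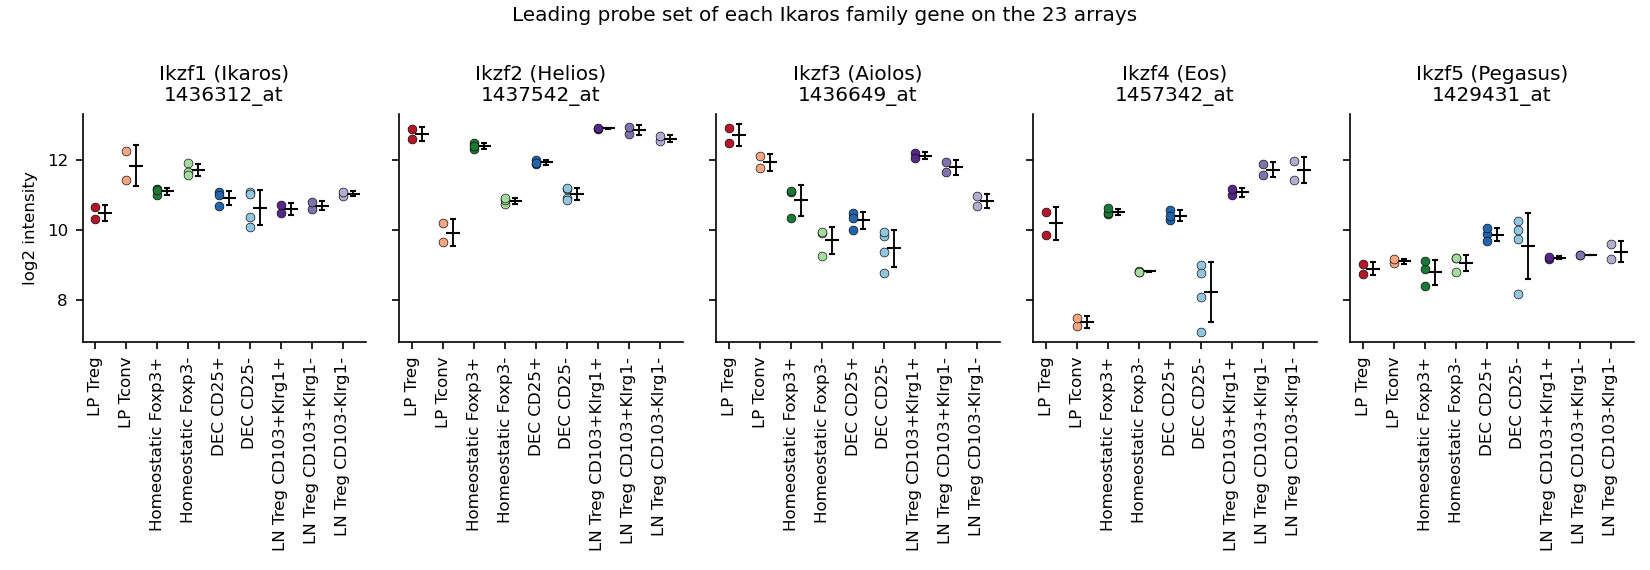
Log2 intensity of the leading probe set of each Ikaros family gene (y axis, shared) in the 9 groups (x axis). Each point is 1 array, and the bar beside it gives the group mean and SD. Ikzf2 and Ikzf4 are high in the 6 Treg groups and low in LP Tconv, homeostatic Foxp3- and DEC CD25- cells, and Ikzf3 peaks in LP Treg cells.

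Helios was higher in lamina propria Treg cells than in their partners, with the smallest p of the family there. Its leading probe set, 1437542_at, read 12.87 and 12.60 in the LP Treg arrays, against 10.20 and 9.65 in the LP Tconv arrays. The group means were 12.74 ± 0.19 and 9.92 ± 0.39 (SD, n = 2 each), a 7.04-fold difference of 2.82 ± 0.19 on the log2 scale (± standard error, adjusted p = 1.32e-07). The lower LP Treg array thus lay well above the higher LP Tconv array. All tests are limma contrasts in a fit to the 23 arrays, with p-values adjusted by Benjamini-Hochberg over the 26492 probe sets above the filter, and a call is an adjusted p under 0.05.

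In homeostatic cells Helios read 12.50, 12.33 and 12.39 on the Foxp3+ arrays and 10.74, 10.86 and 10.90 on the Foxp3- arrays. The difference was 1.57 ± 0.15, or 2.97-fold (adjusted p = 8.50e-06), and the groups did not overlap. In DEC cells it read 11.88, 12.01 and 11.92 on the CD25+ arrays, and 11.17, 11.19, 10.92 and 10.85 on the CD25- arrays. This 1.87-fold difference of 0.90 ± 0.14 also passed the test (adjusted p = 0.00553), with the groups again apart. It is the least secure of the Helios results: the median of all probe sets differed by 0.17 in the same direction (0.0022 without both dim CD25- arrays), which leaves 0.73 relative to that median. It fell short of the threshold after quantile normalization (0.65, adjusted p = 0.0645), after cyclic loess (0.57, adjusted p = 0.143), without both dim arrays (0.76, adjusted p = 0.0588) and without DEC CD25+ replicate 2 (0.87, adjusted p = 0.0601).

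The size of the Helios difference itself differed between systems. The lamina propria difference exceeded the homeostatic one by 1.24 ± 0.24 (adjusted p = 0.0171) and the DEC one by 1.91 ± 0.23 (adjusted p = 3.35e-04). The homeostatic difference exceeded the DEC one by 0.67 ± 0.21, which was not called (adjusted p = 0.334). Of the 13 family probe sets, 2 were called for lamina propria over homeostatic, 2 for lamina propria over DEC and 0 for homeostatic over DEC, where 0.623%, 0.917% and 0.264% of all probe sets were called. In each pair of calls 1 was 1421643_at of Helios, which entered the test through the LP Treg arrays. For the last, limma gave 2 at an unadjusted p under 0.05, with the share of all probe sets at that p not counted. The first of these excesses was lost after cyclic loess (1.17, adjusted p = 0.0505) and without LP Treg replicate 1 (1.11, adjusted p = 0.136), LP Tconv replicate 2 (0.97, adjusted p = 0.113) or homeostatic Foxp3- replicate 3 (1.21, adjusted p = 0.0505). The partner levels differed too: LP Tconv cells differed by -0.91 from homeostatic Foxp3- cells (adjusted p = 0.00151) and by -1.11 from DEC CD25- cells (adjusted p = 9.92e-05). Strain, origin and sort differ together between these systems and cannot be told apart.

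The other Helios probe sets gave the same direction in all 3 systems. For 1456956_at, LP Treg arrays read 13.50 and 12.66 and LP Tconv arrays 9.31 and 8.18, a 20.2-fold difference of 4.33 ± 0.71 (adjusted p = 0.00146). In homeostatic cells this probe set was 2.49 ± 0.58 higher in Foxp3+ cells (adjusted p = 0.0369), a call lost on leaving out any 1 of 5 of the 6 arrays (adjusted p up to 0.205). In DEC cells it was 1.47 ± 0.54 higher in CD25+ cells but not called (adjusted p = 0.224), and the CD25- arrays spread over 10.84, 10.29, 7.81 and 8.86. Both brighter probe sets moved together over the 23 arrays (Pearson r = 0.94). The remaining one, 1421643_at, passed the filter only through the LP Treg arrays, at 7.10 and 6.70, while every other array read 4.97 to 6.04, so that its calls for LP Treg cells follow from how it entered the test.

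Eos followed the same partition. Its leading probe set, 1457342_at, read 9.86 and 10.52 in LP Treg cells, against 7.25 and 7.48 in LP Tconv cells. The means of 10.19 ± 0.47 and 7.36 ± 0.16 (SD, n = 2 each) differed by 2.83 ± 0.41, or 7.09-fold (adjusted p = 5.45e-04). Homeostatic Foxp3+ arrays read 10.45, 10.49 and 10.62, and Foxp3- arrays 8.83, 8.81 and 8.81. These sets are tight and far apart, with a difference of 1.70 ± 0.34, or 3.26-fold (adjusted p = 0.0116). The homeostatic call was lost without Foxp3+ replicate 3 (adjusted p = 0.0664), Foxp3- replicate 1 (adjusted p = 0.0546) or Foxp3- replicate 3 (adjusted p = 0.0505), with the difference at 1.65 or more each time.

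In DEC cells Eos read 10.28, 10.57 and 10.39 in CD25+ cells, and 9.0, 8.07, 7.09 and 8.76 in CD25- cells. The CD25- arrays spread widely, and every CD25- array was lower than every CD25+ array. The difference was 2.18 ± 0.32, or 4.53-fold (adjusted p = 0.00413), and 2.01 relative to the median of all probe sets. Without both dim arrays it was 1.88 (adjusted p = 0.00324). By p it ranked 15 of the 26492 probe sets in the DEC comparison, and Helios ranked 31. In the lamina propria Helios ranked 4 and Eos 129, and in homeostatic cells Helios ranked 24 and Eos 218.

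The second Eos probe set, 1438274_at, was higher by 1.89 ± 0.26 in LP Treg cells (adjusted p = 2.60e-04), by 1.20 ± 0.21 in homeostatic Foxp3+ cells (adjusted p = 0.00428) and by 1.33 ± 0.20 in DEC CD25+ cells (adjusted p = 0.00442). The DEC call was lost without DEC CD25+ replicate 2 (1.14, adjusted p = 0.0537). The remaining one, 1460664_at, stayed between 7.26 and 8.30 on all 23 arrays and was called in none of these 3 comparisons, so the Eos probe sets disagree. Its correlation with the leading probe set was 0.21, against 0.91 between both others. Unlike Helios, the Eos difference was not shown to vary in size between systems: lamina propria exceeded homeostatic by 1.12 ± 0.53 (adjusted p = 0.987) and DEC by 0.65 ± 0.52 (adjusted p = 0.694).

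Over the family, 6 of 13 probe sets were called in LP Treg over LP Tconv cells (2.2% of all probe sets), 5 higher and 1 lower. In homeostatic Foxp3+ over Foxp3- cells 4 of 13 were called (1.33%), all higher. In DEC CD25+ over CD25- cells 3 of 13 were called (0.442%), all higher. All these higher calls belonged to Helios or Eos, 1421643_at among them in the lamina propria. With the replicate number as a block, 6 of 13 were called in homeostatic cells, and the added ones were 1436649_at and 1453378_at of Aiolos (adjusted p = 0.00443 and 0.0260), the second with both group means below the filter level. The family's median differences were 0.65, 0.58 and 0.63 in these comparisons, against -0.01, -0.0048 and 0.17 over all probe sets tested. In the fit to the 2 groups alone, 0 of 13 were called in the lamina propria and 0 in the DEC comparison, where that fit called 3 and 0 probe sets in all.

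**Figure D2:**
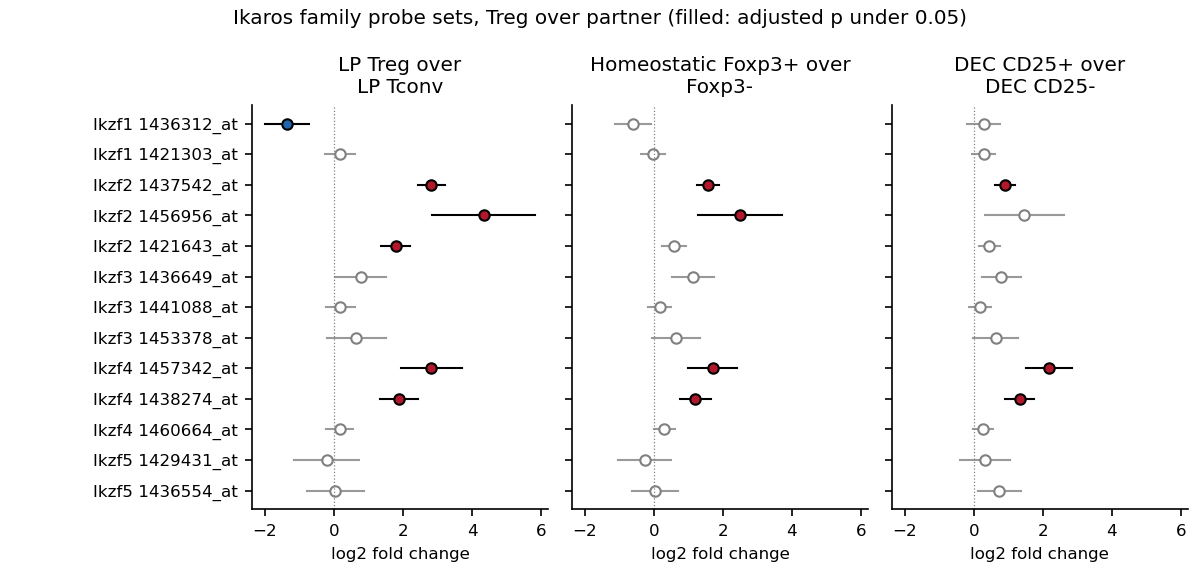
Log2 fold change (x axis) of the 13 Ikaros family probe sets (y axis) in LP Treg over LP Tconv, homeostatic Foxp3+ over Foxp3- and DEC CD25+ over CD25- cells, with 95% confidence intervals from the limma fit. Filled points passed the adjusted p threshold, red for higher and blue for lower, as for 1437542_at of Ikzf2 and 1457342_at of Ikzf4 in each panel.

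Ikaros, the founding member, went the other way in the lamina propria. Its leading probe set, 1436312_at, read 10.33 and 10.66 in LP Treg cells, against 11.42 and 12.25 in LP Tconv cells. LP Treg cells were lower by a difference of -1.35 ± 0.30, or 2.55-fold (adjusted p = 0.0207). This call rests on few arrays: it was lost without LP Treg replicate 1 (-1.18, adjusted p = 0.263), LP Treg replicate 2 (-1.51, adjusted p = 0.0596) or LP Tconv replicate 2 (-0.93, adjusted p = 0.328). The second Ikaros probe set, 1421303_at, differed by 0.17 ± 0.20 there and kept within 6.14 to 6.97 on all arrays, near the filter level of 6.27.

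In homeostatic cells Ikaros averaged 11.10 ± 0.09 on Foxp3+ arrays, the highest at 11.16, and 11.71 ± 0.17 on Foxp3- arrays, the lowest at 11.58 (SD, n = 3 each). The groups did not overlap, but the difference of -0.61 ± 0.25 was not called (adjusted p = 0.547). It stayed uncalled in 15 of 17 alternatives and was called in 2. In DEC cells the ranges overlapped, with 10.69 to 11.08 in CD25+ and 10.08 to 11.07 in CD25- cells, and the difference of 0.28 ± 0.23 turned to -0.040 after cyclic loess and to -0.13 without both dim arrays. The lamina propria difference was below the DEC one by 1.63 ± 0.38, just short of the threshold (log2 difference -1.63, adjusted p = 0.0525).

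The summed signal of markers of other lymphocytes also differed in the lamina propria comparison. Summed intensity of the 5 CD8 T and NK cell markers on the array was 950 to 1439 in LP Treg cells and 5312 to 6242 in LP Tconv cells, with 2 of the 5 above the filter in LP Treg and 3 in LP Tconv cells. Of the 5 markers, 1 was called (2.2% of all probe sets), lower in LP Treg cells. Their median difference was -0.057, against -0.011 over all probe sets, so the list as a whole did not shift with the sum. The part of CD8 T and NK cell RNA in the Ikaros and Aiolos levels was not tested. On bulk arrays, fewer cells of a type and less RNA per cell cannot be told apart.

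Aiolos was high in the gut in both sorts. Its leading probe set, 1436649_at, read 12.93 and 12.49 in LP Treg cells, against 11.76 and 12.10 in LP Tconv cells. The LP Treg arrays were the higher ones, but the difference of 0.78 ± 0.35 was not called (adjusted p = 0.547). Homeostatic Foxp3+ arrays read 11.09, 10.33 and 11.11 and Foxp3- arrays 9.90, 9.26 and 9.95, with replicate 2 the lowest of both groups. Their difference of 1.14 ± 0.29 missed the threshold without pairing (adjusted p = 0.0645) and passed it with the replicate number as a block (adjusted p = 0.00443). It also passed without homeostatic Foxp3+ replicate 2 (1.39, adjusted p = 0.0295) and without both dim DEC CD25- arrays (adjusted p = 0.0151). In DEC cells Aiolos read 10.0, 10.47 and 10.34 in CD25+ cells, and 9.36, 9.81, 9.93 and 8.78 in CD25- cells. The CD25+ arrays were all above the CD25- arrays, and the difference of 0.80 ± 0.27 was not called (adjusted p = 0.196).

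Homeostatic arrays also carried myeloid RNA. The 8 myeloid and dendritic cell markers summed to 2749 to 8091 in Foxp3+ and 4411 to 12699 in Foxp3- cells, against 859 to 1514 over the lamina propria and lymph node groups. In DEC cells the sums were 1918 to 4520 in CD25+ and 904 to 2657 in CD25- cells. Of the 8 markers, 7 were above the filter in both homeostatic groups and in DEC CD25+ cells, and 6 in DEC CD25- cells. The 5 CD8 T and NK cell markers on the array summed to 4463 to 6173 in Foxp3+ and 7022 to 10473 in Foxp3- cells, 4 of them above the filter in both, and Klrd1, an NK cell receptor, was lower in Foxp3+ cells (-2.53, adjusted p = 0.0397). The 2 erythroid markers on the array summed to 120 to 1263 in Foxp3+ and 260 to 2211 in Foxp3- cells. The part of these cells' RNA in the family's levels was not tested.

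No Pegasus difference between Treg cells and partners was called. Its leading probe set, 1429431_at, read 9.03 and 8.75 in LP Treg cells, against 9.04 and 9.15 in LP Tconv cells (difference -0.21, 95% interval -1.15 to 0.73). In homeostatic cells the difference was -0.27 (interval -1.03 to 0.50). In DEC cells it was 0.33 (interval -0.39 to 1.04), turning to -0.12 without both dim arrays, the dimmer of which held the lowest Pegasus reading of all, 8.17. These intervals leave room for changes of up to about 1 log2 unit in either direction.

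Among lymph node Treg cells, no family probe set was called between the CD103 and Klrg1 subsets. For CD103+Klrg1- over CD103-Klrg1- cells 0 of 13 probe sets were called (0.0679% of all), for CD103+Klrg1+ over CD103+Klrg1- cells 0 of 13 (0.396%) and for CD103+Klrg1+ over CD103-Klrg1- cells 0 of 13 (1.77%). At an unadjusted p under 0.05, limma gave 1 of 13 in each. The share of all probe sets at that p was not counted, so nothing is read from this. Helios read 12.89 and 12.92 in CD103+Klrg1+, 12.76 and 12.95 in CD103+Klrg1- and 12.54 and 12.68 in CD103-Klrg1- cells. The CD103+Klrg1+ arrays exceeded the CD103-Klrg1- arrays by 0.30, with an interval of -0.10 to 0.69.

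Aiolos showed the widest spread among lymph node subsets. It read 12.20 and 12.05 in CD103+Klrg1+, 11.65 and 11.94 in CD103+Klrg1- and 10.97 and 10.69 in CD103-Klrg1- cells. No subset overlapped another, with only 2 arrays in each. CD103+Klrg1+ exceeded CD103-Klrg1- cells by 1.29 ± 0.35, or 2.45-fold, without a call (adjusted p = 0.0868). Of 15 alternatives, 11 left that difference uncalled and 4 called it. Those 4 included the fit to these groups alone (adjusted p = 0.0495) and array weights (adjusted p = 0.00714). The fit without both dim DEC CD25- arrays was another (adjusted p = 0.0225). Leaving out 1 array gave differences of 1.16 to 1.43. The other Aiolos probe sets, 1441088_at and 1453378_at, differed by 0.34 ± 0.20 and 0.64 ± 0.41 between these subsets, neither called. B cells express Aiolos, and the 7 B cell markers on the array summed to 2582 to 4106 in CD103+Klrg1+, 1380 to 2134 in CD103+Klrg1- and 1941 to 2036 in CD103-Klrg1- cells, 6 of them above the filter in each subset. The median difference of the 6 tested B cell markers was 0.71 in CD103+Klrg1+ over CD103-Klrg1- cells, against -0.020 over all probe sets. Of these markers 0 were called, beside 1.77% of all probe sets. The part of B cell RNA in the Aiolos levels was not tested.

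On its leading probe set, Eos tended the other way without passing the test. It read 10.99 and 11.16 in CD103+Klrg1+, 11.88 and 11.57 in CD103+Klrg1- and 11.44 and 11.98 in CD103-Klrg1- cells. The CD103+Klrg1+ arrays were the lowest, by -0.65 ± 0.41 against CD103+Klrg1- cells and by -0.64 ± 0.41 against CD103-Klrg1- cells. For the second Eos probe set the first of these differences was -0.66 (adjusted p = 0.920) and the other -0.47, not called. The Eos probe set 1460664_at did not share the trend, with differences of 0.037 and 0.011.

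LP Treg cells were then set beside each lymph node subset. These 3 comparisons share the LP Treg arrays. Against CD103-Klrg1- cells 5 of 13 probe sets were called (5.02% of all), against CD103+Klrg1- cells 3 of 13 (3.17%) and against CD103+Klrg1+ cells 2 of 13 (2.29%). Each count includes 1421643_at of Helios, which could enter the test only by being high in LP Treg cells. The leading Helios probe set was not called: LP Treg cells differed by 0.13 (interval -0.26 to 0.52) from CD103-Klrg1-, by -0.11 (interval -0.51 to 0.28) from CD103+Klrg1- and by -0.17 (interval -0.56 to 0.23) from CD103+Klrg1+ cells.

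On their leading probe sets, Aiolos was higher and Eos lower in gut Treg cells than in the CD103-Klrg1- subset. Aiolos, at 12.93 and 12.49 in LP Treg cells, exceeded the 10.97 and 10.69 of CD103-Klrg1- cells by 1.88 ± 0.35, or 3.67-fold (adjusted p = 0.00344). Leaving out LP Treg replicate 1 gave 1.66 (adjusted p = 0.0757) and leaving out CD103-Klrg1- replicate 2 gave 1.74 (adjusted p = 0.0583). The second Aiolos probe set, 1441088_at, read 7.77 and 7.35 in LP Treg cells and 6.35 and 6.19 in CD103-Klrg1- cells, a difference of 1.29 ± 0.20 (adjusted p = 7.96e-04). Its means were 6.27 in CD103-Klrg1-, 6.39 in CD103+Klrg1- and 6.61 in CD103+Klrg1+ cells, near the filter level of 6.27. The Aiolos probe set 1453378_at read 7.84 and 6.28 in LP Treg cells, against 6.52 and 6.39 in CD103-Klrg1- cells, and these arrays overlapped (0.60, adjusted p = 0.551). The 1441088_at level was also higher in LP Treg than in CD103+Klrg1- cells by 1.18 ± 0.20 (adjusted p = 0.00295) and than in CD103+Klrg1+ cells by 0.95 ± 0.20 (adjusted p = 0.0141). Without LP Treg replicate 1 these last differences were 0.96 (adjusted p = 0.0945) and 0.74 (adjusted p = 0.302), and the CD103+Klrg1+ difference also lost its call without either CD103+Klrg1+ array (adjusted p = 0.114 and 0.105). The leading probe set was 0.92 ± 0.35 above CD103+Klrg1- and 0.58 ± 0.35 above CD103+Klrg1+ cells, neither called (adjusted p = 0.207 and 0.593).

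Eos, at 9.86 and 10.52 in LP Treg cells, lay below the 11.44 and 11.98 of CD103-Klrg1- cells by a difference of -1.52 ± 0.41, or 2.87-fold (adjusted p = 0.0400). Its second probe set was lower too, 9.21 and 9.15 against 10.32 and 9.97, a difference of -0.97 ± 0.26 (adjusted p = 0.0349). Both calls were lost on leaving out any 1 of the 4 arrays, with adjusted p of 0.0523 to 0.409 and of 0.0908 to 0.272, and the direction held. The Eos probe set 1460664_at differed by 0.0090 from CD103-Klrg1- cells (adjusted p = 0.993). Against CD103+Klrg1- cells the leading probe set differed by -1.53 ± 0.41 (adjusted p = 0.0530), which 8 of 15 alternatives called and 7 did not. The second probe set differed by -1.16 ± 0.26 (adjusted p = 0.0174). Its call was lost without any 1 of the 4 arrays, with differences of -1.33 to -0.99. Against CD103+Klrg1+ cells the leading probe set differed by -0.89 ± 0.41 (adjusted p = 0.416).

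Marker signal of other cells differed between gut and node. The B cell marker sum was 771 to 869 in LP Treg cells, below the 1380 to 4106 of the lymph node subsets. The 4 plasma cell markers summed to 3502 to 4843 in LP Treg and 3157 to 3506 in LP Tconv cells, against 1923 to 2990 in lymph node Treg cells. Jchain, the joining chain of secreted antibodies, was 10.90 and 9.97 in LP Treg and 10.02 and 8.90 in LP Tconv cells, against 5.85 to 7.46 in lymph node Treg cells. The plasma cell sum did not follow Jchain in the other systems. It was 3615 to 4480 in DEC CD25+ and 3183 to 3511 in homeostatic Foxp3+ cells, with Jchain at 6.21 to 6.40 and 5.14 to 5.50. Of the 3 tested plasma cell markers, 1 was called against each lymph node subset, higher in LP Treg cells. Of all probe sets, 5.02%, 3.17% and 2.29% were called against CD103-Klrg1-, CD103+Klrg1- and CD103+Klrg1+ cells. The part of plasma cell RNA in the Aiolos levels was not tested.

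**Figure D3:**
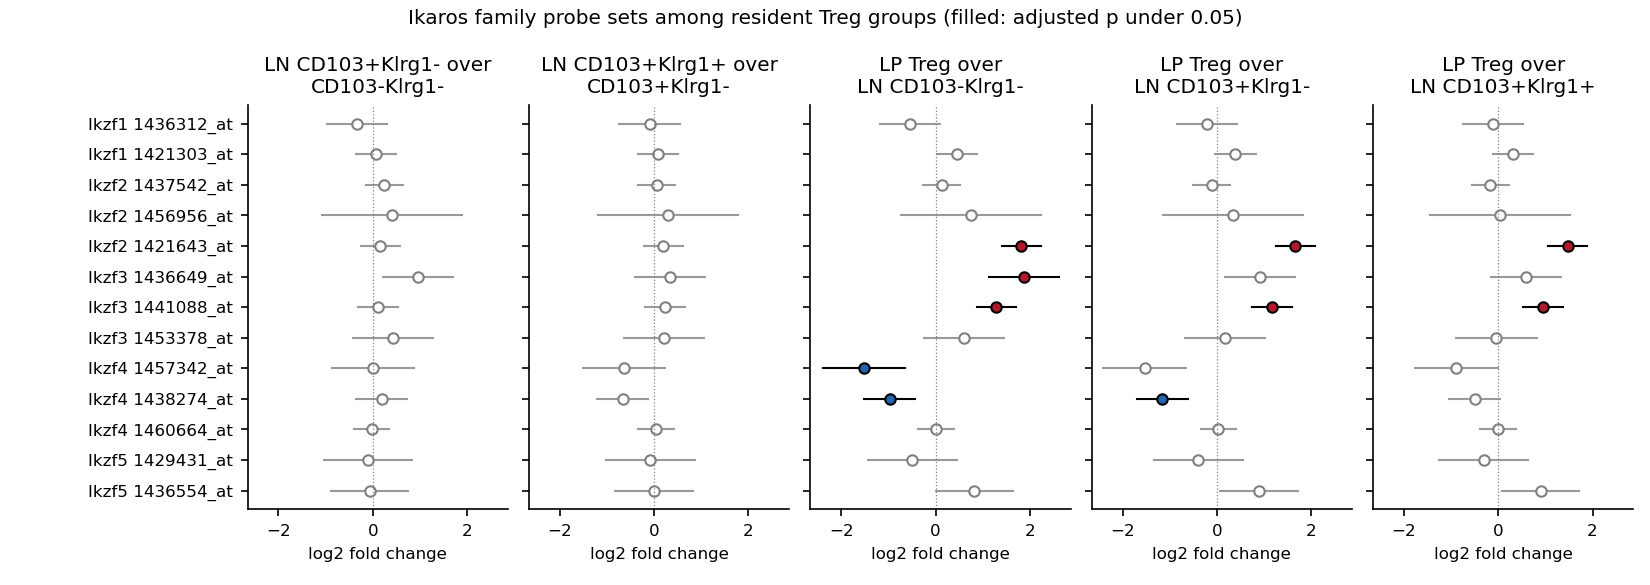
Log2 fold change (x axis) of the 13 Ikaros family probe sets (y axis) between lymph node Treg subsets (2 left panels) and in LP Treg cells over each lymph node subset (3 right panels), with 95% confidence intervals from the limma fit. Filled points passed the adjusted p threshold, red for higher and blue for lower. No probe set was called between lymph node subsets, and against CD103-Klrg1- cells 1436649_at and 1441088_at of Ikzf3 lie right and 1457342_at and 1438274_at of Ikzf4 left of 0.

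Treg cells made by transfer were set beside each other and beside CD103-Klrg1- lymph node Treg cells. Between homeostatic Foxp3+ and DEC CD25+ cells 4 of 13 probe sets were called, beside 26.7% of all probe sets. Between homeostatic Foxp3+ and CD103-Klrg1- lymph node cells 4 of 13 were called (13.8%), and between DEC CD25+ and CD103-Klrg1- cells 4 of 13 (16.5%). Strain, origin and sort differ together in these comparisons and cannot be told apart. Eos was lower than in CD103-Klrg1- cells by a difference of -1.19 ± 0.38 in homeostatic Foxp3+ cells (adjusted p = 0.0441) and of -1.30 ± 0.38 in DEC CD25+ cells (adjusted p = 0.0242). The second Eos probe set was lower by -1.41 ± 0.23 (adjusted p = 6.04e-04) and -1.01 ± 0.23 (adjusted p = 0.00618). The probe sets of Eos disagreed, since 1460664_at was higher in homeostatic Foxp3+ cells by 0.61 ± 0.16 (adjusted p = 0.0201). The homeostatic call on the leading probe set was lost without any 1 of the 5 arrays (adjusted p 0.0754 to 0.345), and the DEC one without any 1 of 4 of the 5 (adjusted p 0.0530 to 0.244). The DEC call on the second was lost without CD103-Klrg1- replicate 1 (-0.83, adjusted p = 0.0991).

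The calls over CD103-Klrg1- cells include 1421643_at of Helios, higher by 0.67 in homeostatic Foxp3+ (adjusted p = 0.0178) and by 0.70 in DEC CD25+ cells (adjusted p = 0.0117), with means below the filter level in all 3 groups. On the leading probe set of Helios, homeostatic Foxp3+ cells differed from CD103-Klrg1- cells by -0.20 (interval -0.56 to 0.15, adjusted p = 0.478). In DEC CD25+ cells it was lower than in CD103-Klrg1- cells, by a difference of -0.67 ± 0.17 (adjusted p = 0.0107; without CD103-Klrg1- replicate 2, -0.60 and 0.121), and homeostatic Foxp3+ cells exceeded DEC CD25+ cells by 0.47 ± 0.15 (adjusted p = 0.0299). The last call was lost without any 1 of 5 of the 6 arrays (adjusted p up to 0.103). Pegasus was lower in homeostatic Foxp3+ cells than in DEC CD25+ cells by a difference of -1.08 ± 0.36 (adjusted p = 0.0366) on the leading probe set and of -1.02 ± 0.32 (adjusted p = 0.0238) on 1436554_at. The leading probe set lost that call without any 1 of 5 of the 6 arrays (adjusted p up to 0.147) and the other without any 1 of 3 (adjusted p up to 0.101).

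The order of the 9 group means differed from member to member. For Helios it ran from 12.91 ± 0.02 in CD103+Klrg1+ (SD, n = 2) through 12.85 ± 0.14 in CD103+Klrg1-, 12.74 ± 0.19 in LP Treg, 12.61 ± 0.10 in CD103-Klrg1-, 12.41 ± 0.09 in homeostatic Foxp3+ and 11.94 ± 0.07 in DEC CD25+ cells to 11.03 ± 0.17 in DEC CD25-, 10.83 ± 0.08 in homeostatic Foxp3- and 9.92 ± 0.39 in LP Tconv cells. Of the 8 neighbouring pairs in that order, 3 were called: homeostatic Foxp3+ over DEC CD25+, DEC CD25+ over DEC CD25-, and homeostatic Foxp3- over LP Tconv. Homeostatic Foxp3+ over DEC CD25+ cells called 26.7% of all probe sets, and DEC CD25+ over DEC CD25- cells 0.442%. The 3 pairs of partner groups called 16.4% to 31.6%. The order was taken from the same means that were tested. For Eos the order ran from 11.72 ± 0.22 in CD103+Klrg1- and 11.71 ± 0.38 in CD103-Klrg1- to 8.23 ± 0.86 in DEC CD25- and 7.36 ± 0.16 in LP Tconv cells. Of its neighbouring pairs only LP Treg over homeostatic Foxp3- cells, which also crosses strains and systems, was called (1.37, adjusted p = 0.0188).

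Aiolos ran from 12.71 ± 0.31 in LP Treg cells to 9.47 ± 0.52 in DEC CD25- cells, with LP Tconv cells between the lymph node CD103+ subsets at 11.93 ± 0.24. Ikaros ran from 10.49 ± 0.23 in LP Treg cells, its lowest group, to 11.84 ± 0.59 in LP Tconv cells, its highest. Pegasus ran from 9.87 ± 0.18 in DEC CD25+ to 8.79 ± 0.36 in homeostatic Foxp3+ cells. No neighbouring pair was called for these 3 genes.

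On their leading probe sets, Helios and Eos parted the Treg groups from the partner groups across systems as well as within them. The Eos probe set 1460664_at did not, with means of 7.83 in homeostatic Foxp3- and 7.53 in LP Treg cells. Nor did 1421643_at of Helios, at 5.33 in DEC CD25- and 5.09 in CD103-Klrg1- cells, both below the filter level. Each leading probe set of these 2 genes was called in all 18 pairings of 1 of the 6 Treg groups with 1 of the 3 partner groups. It was higher in the Treg group each time. Aiolos was called in 11, Ikaros in 8 and Pegasus in 0 of the 18. The share of all probe sets called in these pairings was 0.442% to 32%, with a median of 16.1%, and most of them also cross strains. Among the 15 pairings of Treg groups, Helios was called in 5, each with DEC CD25+ cells as the lower group, and Eos in 5, where 0.0679% to 26.7% of all probe sets were called, with a median of 13.8%.

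**Figure D4:**
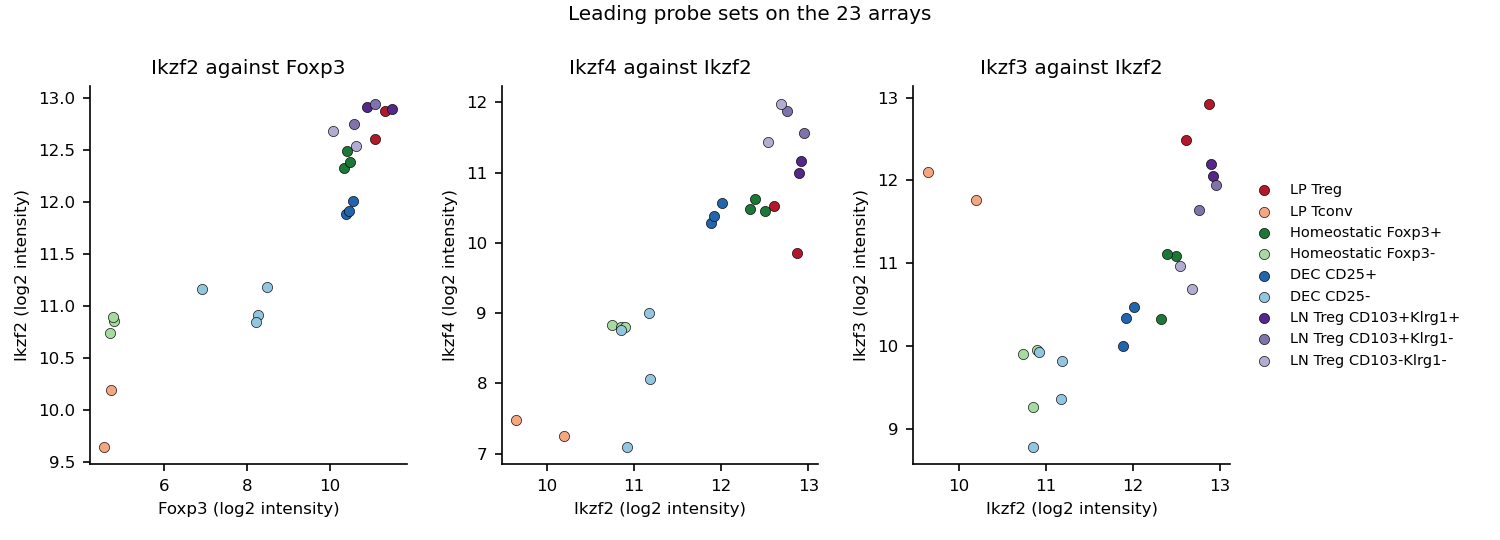
Leading probe sets against each other on the 23 arrays (log2 intensity on both axes), coloured by group: Ikzf2 against Foxp3, Ikzf4 against Ikzf2 and Ikzf3 against Ikzf2. Treg and partner arrays form separate clusters in the left and middle panels, the LP Treg arrays fall low in Ikzf4 for their Ikzf2, and the LP Tconv arrays stand apart in the right panel with high Ikzf3 and the lowest Ikzf2.

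Over the 23 arrays the leading Helios and Eos probe sets correlated with r = 0.90 (Spearman 0.85), as a description of arrays that fall into Treg and partner clusters. Over the 14 Treg arrays alone r was 0.46. With Foxp3, the transcription factor that defines Treg cells, Helios had r = 0.91 over 23 and 0.60 over 14 arrays, and Eos 0.78 and -0.16. Aiolos had 0.41 and 0.85, and Ikaros -0.71 and -0.78. The arrays share strain and system within groups, so these values describe the groups and not cells.

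By likeness over the 23 arrays, among 12515 other genes, Helios was nearest to Rragd (r = 0.92), Acot9 (0.91), Foxp3 (0.91), Ikzf4 (0.90) and Il2ra (0.90), which encodes CD25. Eos was nearest to Il2ra (0.91), Ift80 (0.91), Ikzf2 (0.90), Rragd (0.90) and Acot9 (0.88). The genes Rragd, Acot9 and Il2ra were thus near both. Over the 14 Treg arrays Acot9 kept r = 0.83 with Helios, and Ift80 kept 0.90 with Eos, while Il2ra dropped to 0.40 and 0.58.

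Aiolos was nearest to Fam185a (0.95), Cpm (0.95), Prdm1 (0.94), Rpap2 (0.93) and Zfp52 (0.92). Prdm1 encodes Blimp-1, a transcriptional repressor expressed in effector Treg cells and plasma cells. All 5 kept r of 0.91 or above over the 14 Treg arrays. Ikaros was nearest to Litaf (0.87), Dguok (0.83), Shld1 (0.81), Chn2 (0.81) and Myo10 (0.81), of which only Myo10 kept r above 0.5 over the 14 (0.78). Pegasus was nearest to Zbtb11 (0.91), Trpm7 (0.86), Kif16b (0.84), Lemd3 (0.84) and Angel2 (0.84).

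Corepressor and ligase genes that work with the family were then counted. Of the 17 listed corepressor subunits of NuRD, Sin3 and CtBP, 16 were tested and 0 were called in any of the 3 comparisons of Treg cells with partners by limma, with 1, 0 and 1 at an unadjusted p under 0.05 in lamina propria, homeostatic and DEC cells. Their median differences were -0.10, 0.0006 and 0.13, against -0.01, -0.0048 and 0.17 over all probe sets. Of the 5 genes of the cereblon ubiquitin ligase 0 were called and 0 passed unadjusted. Of all probe sets, 2.2%, 1.33% and 0.442% were called in these comparisons, and the share at an unadjusted p was not counted. Of Foxp3 and 5 factors described as acting with it, only Foxp3 was called in each comparison. The lamina propria and homeostatic sorts selected for Foxp3, and the DEC sort selected for CD25.

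Among 12 tested genes that Ikaros family factors are described to regulate, Il2, the T cell growth factor, was lower in LP Treg and homeostatic Foxp3+ cells than in their partners. It read 5.44 and 5.71 in LP Treg cells, against 7.84 and 7.50 in LP Tconv cells, a difference of -2.09 ± 0.24 (adjusted p = 3.81e-05). In homeostatic cells it read 5.96, 6.20 and 5.82 on Foxp3+ arrays and 7.06, 7.0 and 7.07 on Foxp3- arrays, a difference of -1.05 ± 0.19 (adjusted p = 0.00623). All the LP Treg and Foxp3+ readings are below the filter level of 6.27. In DEC cells Il2 was not called, and the arrays overlapped, at 5.94, 5.86 and 6.47 in CD25+ cells and 6.55, 6.92, 6.73 and 6.45 in CD25- cells. Ifng, the Th1 cytokine, was lower in LP Treg cells at 10.35 ± 0.20, against 13.22 ± 0.47 in LP Tconv cells (SD, n = 2 each, adjusted p = 4.82e-04). Il10, the suppressive cytokine, was higher in LP Treg cells by 3.98 ± 0.50 (adjusted p = 1.20e-04) and in DEC CD25+ cells by 1.83 ± 0.38 (adjusted p = 0.0448). In all, 3, 1 and 1 of the 12 were called in lamina propria, homeostatic and DEC cells, beside 2.2%, 1.33% and 0.442% of all probe sets.

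Nrp1 and Swap70, described beside Helios as marks of thymus-derived Treg cells, were called with it in the lamina propria and in neither of the other systems. Nrp1, a semaphorin coreceptor, read 9.68 and 9.86 in LP Treg cells, against 7.73 and 7.24 in LP Tconv cells, a difference of 2.28 ± 0.40 (adjusted p = 0.00294). Swap70 was higher by 1.46 ± 0.26 (adjusted p = 0.00302). In homeostatic cells Nrp1 read 11.39, 10.87 and 10.59 on Foxp3+ arrays and 11.38, 10.76 and 10.62 on Foxp3- arrays, a difference of 0.03 ± 0.33. In DEC cells it was 10.36 to 10.84 in CD25+ and 9.48 to 10.98 in CD25- cells. LP Treg cells were lower in Nrp1 than CD103-Klrg1- cells by a difference of -1.76 ± 0.40 (adjusted p = 0.0135) and than CD103+Klrg1- cells by -2.34 ± 0.40 (adjusted p = 0.00314), where the leading Helios probe set was not called.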

How the data were processed

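RNA of sorted cells was extracted with Trizol, amplified with a MessageAmp kit and hybridized to Affymetrix M430v2 arrays, per the labels. The authors processed the arrays with RMA, per the series design text, and deposited the intensity of each probe set on a linear scale. These values (45101 probe sets, 64 of them controls, lowest value 4.706) were log2-transformed here without a pseudocount. A probe set was tested where any group's mean lay above 77 in intensity (log2 6.27), the median over the whole table, which left 26492. The fit used limma 3.58.1 in R 4.3.3 with 1 mean per group over the 23 arrays, the default eBayes prior (14 residual and 3.35 prior degrees of freedom), two-sided, with Benjamini-Hochberg adjustment. It was tested on simulated data. The array annotation gives 34945 probe sets 1 symbol, 932 several and 9160 none, and only the first kind was named. The deposited values carry no detection call, and precision is limited by the number of arrays. Where groups are said not to overlap, the share of all probe sets that part in this way was not counted.

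All probe sets of the members were named, with the 5 genes most like each leading probe set and the list genes called in at least 1 of the 3 comparisons of Treg cells with partners. Members and lists were chosen with earlier results of these data known. The main fit has 1 mean per group and no pairing. Same-numbered homeostatic arrays deviated together (correlation of deviations from the group means 0.579, 0.544 and 0.529), as did DEC arrays (0.400, 0.478 and 0.388). In the replicate block, an alternative, these numbers were therefore taken as pairs. Lamina propria and lymph node groups have 2 arrays each, too few for that decision. Alternatives covered normalization, pseudocount, filters, 1 probe set per gene, an intensity trend, array weights, the 2 groups alone, the replicate block, arrays left out and rank correlation. No sequences or coordinates are reported.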

Additional observations from a re-analysis of the deposited data

Results flagged for a closer look

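Helios was the family member whose difference between Treg and partner cells was called as unequal between systems. On the leading probe set, 1437542_at, the lamina propria difference exceeded the homeostatic one by 1.24 and the DEC one by 1.91 on the log2 scale. On 1421643_at the excesses were 1.20 and 1.33. That probe set entered the fit only by its level in LP Treg cells, so these values are a description and no second test. Without LP Treg replicate 1 they were 1.00 and 1.13. The excess over DEC on the leading probe set kept its call in every alternative run. Its DEC term includes both dim CD25- arrays.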

How the results depend on the processing

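Over 85 results with a test, the alternatives kept direction and side of the threshold 1150 times, lost a call 112 times, gained one 22 times and turned the direction 21 times. Causes were not tested, except that fits to the 2 groups alone and fits without an array hold fewer arrays. Fits to the 2 groups alone called neither Helios nor Eos in the lamina propria (2.82 and 2.83, adjusted p = 0.131 and 0.144) or in DEC cells (0.90 and 2.18, adjusted p = 0.517 and 0.521). Helios in DEC cells was also not called after quantile normalization (0.65), cyclic loess (0.57) or without both dim arrays (0.76). Leaving out 1 array gave 0.84 to 0.96 for it and 1.65 to 1.74 for Eos in homeostatic cells. With 1 probe set per gene the family holds 5 probe sets, so its counts there cannot be set against those of 13. They were 3 of LP Treg over LP Tconv, 2 homeostatic, 2, 0 and 0 of LP Treg over CD103-Klrg1-, CD103+Klrg1- and CD103+Klrg1+, 2 of homeostatic Foxp3+ over DEC CD25+, and 1 and 2 of homeostatic Foxp3+ and DEC CD25+ over CD103-Klrg1- cells. With the 2 groups alone the family counts, again of 13, were 0 in the lamina propria, 7 homeostatic, 0 DEC, 1 of CD103+Klrg1+ over CD103-Klrg1- and 1 of LP Treg over CD103+Klrg1+ cells. Array weights gave 7 homeostatic, 1 of CD103+Klrg1+ over CD103-Klrg1-, 6 of LP Treg over CD103+Klrg1-, 7 of homeostatic Foxp3+ over DEC CD25+ and 7 of DEC CD25+ over CD103-Klrg1- cells. They called 1591, 1092, 3152, 13699 and 10326 of 26492 probe sets there, against 353, 470, 841, 7083 and 4380 in the main fit. Without both dim arrays 1 was called for CD103+Klrg1+ over CD103-Klrg1- and 5 for LP Treg over CD103+Klrg1- cells, beside 708 and 1831 of all probe sets. A stricter filter gave 1 for LP Treg over CD103+Klrg1+ cells and 2 of 39 differences between systems, against 4. Leaving out 1 array gave 2 to 4 homeostatic, 1 to 4 DEC, 2 to 3, 1 to 2 and 1 to 2 for LP Treg over CD103-Klrg1-, CD103+Klrg1- and CD103+Klrg1+, 0 to 2 for homeostatic Foxp3+ over DEC CD25+, and 1 to 2 and 1 to 3 for homeostatic Foxp3+ and DEC CD25+ over CD103-Klrg1- cells, and 2 to 6 of 40 neighbouring pairs, against 4. Rank correlation kept 10 of the 25 likeness genes.

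With the replicate number as a block, 1142, 694 and 222 probe sets were called in lamina propria, homeostatic and DEC cells, beside the 2.2%, 1.33% and 0.442% of 26492 called without it, and 7, 6 and 3 of the family, against 6, 4 and 3. Lamina propria and lymph node arrays share only a number, with correlations of 0.0405 in the lamina propria and 0.405 to 0.683 in lymph nodes. The block there called 1 family probe set for CD103+Klrg1+ over CD103-Klrg1- (Aiolos, adjusted p = 0.00534) and 5 for LP Treg over CD103+Klrg1- cells, beside 775 and 1704 of all probe sets. Numbers crossed for LP Treg over CD103+Klrg1- cells, chosen after seeing the data since the correlation was -0.163, also gave 5. That fit called 2064 of all probe sets, against 841 in the main fit. Directions turned only for differences that were not called. In DEC cells Ikaros was -0.040 after loess and -0.13 without both dim arrays, and Pegasus -0.045 with array weights, -0.13 with the block, -0.12 without both dim arrays and -0.13 to 0.56 without 1 array. Loess gave -0.036 for Eos in CD103+Klrg1- over CD103-Klrg1- and 0.0023 for Ikaros in DEC CD25+ over CD103-Klrg1- cells. Without 1 array, CD103+Klrg1- over CD103-Klrg1- cells ran -0.26 to 0.28 for Eos and -0.31 to 0.11 for Pegasus. CD103+Klrg1+ over CD103+Klrg1- cells ran -0.21 to 0.020 for Ikaros and -0.043 to 0.15 for Helios, and CD103+Klrg1+ over CD103-Klrg1- cells -0.39 to 0.031 for Pegasus. LP Treg cells ran -0.0053 to 0.27 for Helios over CD103-Klrg1-, -0.25 to 0.022 for Helios over CD103+Klrg1- and -0.28 to 0.056 for Ikaros over CD103+Klrg1+ cells. Aiolos in homeostatic Foxp3+ over CD103-Klrg1- cells ran -0.13 to 0.27.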

Other observations

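Genes of the lists that were outside the naming rule, and are named here after their values were seen, changed between gut and lymph node Treg cells. Of Foxp3 and the 5 factors described with it, 3 were called lower in LP Treg than in CD103-Klrg1- lymph node cells (5.02% of all probe sets called). Gata1, best known as an erythroid factor, was 7.78 ± 0.37 in LP Treg cells, against 9.73 ± 0.16 in CD103-Klrg1- cells (SD, n = 2 each), and Lef1, a factor of resting T cells, was 7.87 ± 0.13 against 9.44 ± 0.37. Satb1, a chromatin organizer, was 10.62 ± 0.31 in LP Treg cells and 12.30 ± 0.34 in CD103-Klrg1- cells. Adjusted p-values from limma were 0.00503, 0.0267 and 0.0416. Within lymph nodes, Gata1 was 7.39 ± 0.20 in CD103+Klrg1+ cells and 9.44 ± 0.27 in CD103+Klrg1- cells (adjusted p = 0.0195), where Eos also read lowest in CD103+Klrg1+ cells without a call. The survival gene Bcl2 was 9.84 ± 0.25 in LP Treg cells, -3.15 ± 0.51 (± standard error) relative to CD103-Klrg1- cells (adjusted p = 0.00103). Il10 was 13.77 ± 0.34 in LP Treg cells and 6.85 ± 0.92 in CD103-Klrg1- cells (adjusted p = 3.11e-07).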
